A study of Mus musculus with 9 samples.

Results

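The 8 genes described here mark the alpha and delta cells of the pancreatic islet. They are Irx1, Irx2, Pou3f4, Ttr and Slc38a5 for the alpha cell, and Hhex, Etv1 and Rbp4 for the delta cell. They were taken by symbol from 24393 genes of a read count table and from the matching FPKM table, and all 8 were among the 12501 genes that passed the filter on low counts. RNA was sequenced from whole islets of female mice, in 4 libraries from βOGT KO islets and 5 from WT islets. KO mice carried Rip-cre and homozygous floxed Ogt (Rip-cre; Ogt f/f), so that Ogt, which encodes the enzyme that attaches O-GlcNAc to proteins, is deleted in cells that use the rat insulin promoter. WT mice carried floxed Ogt with no Cre listed, as Ogt f/f in 3 libraries and Ogt f/+ in 2, so Cre and the deletion cannot be told apart. Sequencing run 1 held KO replicates 1 and 2 and WT replicates 1 to 3, and run 3 held KO replicates 3 and 4 and WT replicates 4 and 5. Both f/+ libraries, WT replicates 1 and 3, were in run 1. Ages were not given in the labels.

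Alpha cells secrete glucagon, which raises blood glucose, and delta cells secrete somatostatin, which restrains their neighbours. Irx1, Irx2, Pou3f4, Hhex and Etv1 encode transcription factors, and Hhex is needed for delta cells in mice. Ttr encodes transthyretin, a carrier of thyroid hormone that also binds the retinol carrier encoded by Rbp4, and Slc38a5 encodes an amino acid transporter. A Cre driven by the insulin promoter is aimed at beta cells, and alpha and delta cells are outside its intended target.

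Libraries held 3796043 to 6073537 counts, with the deeper ones in run 3. Values below are CPM, the read count scaled to the depth of the library with TMM factors, and 1 CPM stood for 3.09 to 6.82 reads. Ogt fell by 1.30 on the log2 scale in KO islets, with 23.7, 24.1, 30.9 and 39.3 CPM in KO replicates 1 to 4, against 69.6, 54.1, 83.0, 67.0 and 81.8 CPM in WT replicates 1 to 5 (edgeR quasi-likelihood test, adjusted p = 2.44e-05). The hormones of both cell types were abundant in every library: Gcg, which encodes glucagon, was at 23278 to 62885 CPM in KO and 20179 to 37857 CPM in WT islets, and Sst, which encodes somatostatin, at 1045 to 2911 CPM in KO and 858 to 1912 CPM in WT islets. KO replicate 1 stood apart, with the highest Gcg, Sst, Irx1, Irx2, Pou3f4, Ttr, Slc38a5 and Hhex of the 9 libraries, so results for these genes are given with and without it. It was picked on these same values, so leaving it out lowers the KO mean of each by design. The labels do not say whether libraries came from separate animals, so p-values measure the spread between libraries, which may be technical.

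Of the 8 genes, Rbp4 and Etv1 rose in KO islets over both runs, none fell, and 6 did not pass the test. Both that rose are delta cell genes; none of the 5 alpha cell genes passed. Over all genes tested, 9.56% rose and 8.96% fell, or 18.5% in either direction. The median log2 fold change was 0.17 over the 8 genes, 0.11 over the alpha and 0.47 over the delta genes, beside 0.02 over all tested genes. In bulk islets, fewer cells of a type and less RNA per cell cannot be told apart.

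**Figure D1:**
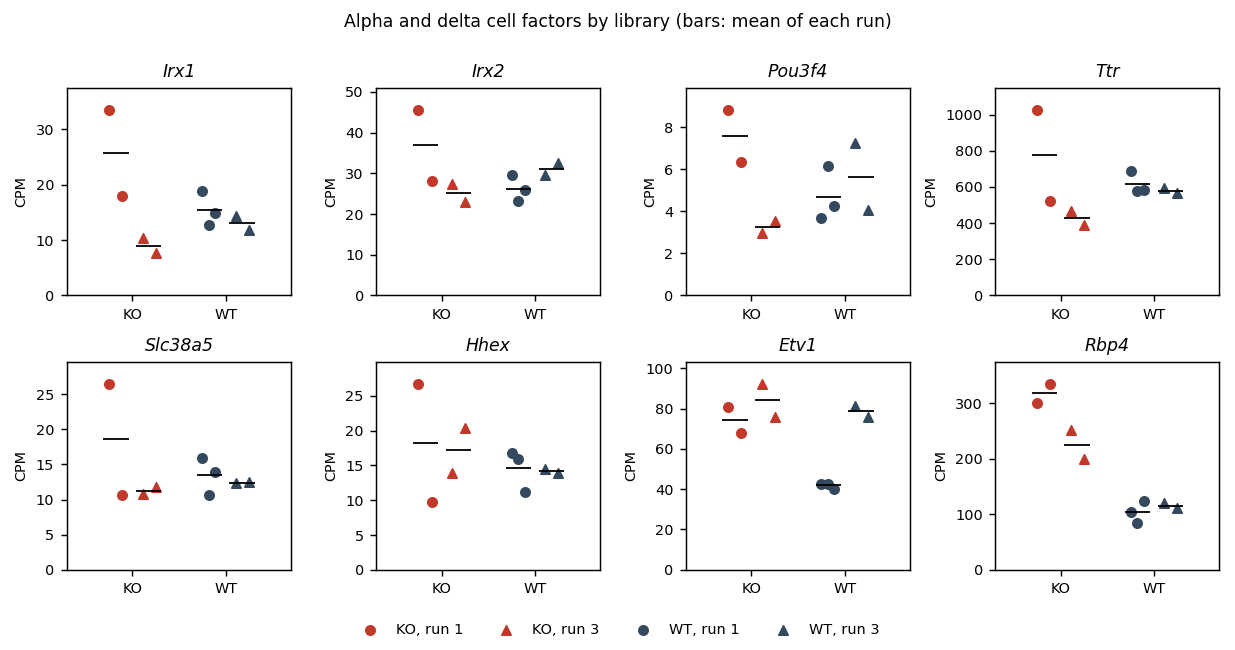
Level in CPM (vertical axes, linear and starting at 0) of each of the 8 genes in 4 KO and 5 WT libraries; points are libraries, circles run 1, triangles run 3, and bars the mean of each run. Rbp4 was higher in all 4 KO libraries than in all 5 WT libraries, whereas several other genes were highest in KO replicate 1.

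Rbp4 encodes retinol binding protein 4, a secreted retinol carrier that is enriched in delta cells of mouse islets. It had 301, 334, 251 and 199.9 CPM in KO replicates 1 to 4, against 104, 84.5, 124, 119.6 and 111 CPM in WT replicates 1 to 5. The groups did not overlap, and the lowest KO library lay well above the highest WT library. Of all tested genes, 11.9% had higher KO than WT libraries without overlap within both runs, and Rbp4 was the 1 of the 8 that did; within run 3 alone this held for 26.3%, and again for Rbp4. Rbp4 averaged 271 ± 58.7 CPM in KO (SD, n = 4) and 109 ± 15.5 CPM in WT islets (SD, n = 5). The log2 fold change was 1.31 ± 0.13 (SE), or 2.48-fold with a 95% interval of 2.05 to 3.00 (edgeR, adjusted p = 8.28e-06), which was larger in size than that of 98.5% of the tested genes. An exact two-sided permutation test within runs gave p = 0.0167, the smallest it can give. Both runs showed the rise, with a log2 fold change of 1.60 in run 1 (adjusted p = 2.11e-05) and 0.97 in run 3 (adjusted p = 0.00366). The run 3 call was lost without KO replicate 3 (0.79, adjusted p = 0.0805) and without WT replicate 5 (0.91, adjusted p = 0.0675), among adjusted p-values from 0.000388 to 0.0805 over its alternatives.

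Etv1 encodes an ETS transcription factor of the PEA3 group, which acts downstream of ERK signalling. It had 80.9 and 67.9 CPM in KO and 42.7, 42.7 and 40.3 CPM in WT libraries of run 1. In run 3 it had 92.2 and 76.0 CPM in KO and 81.3 and 76.0 CPM in WT libraries. The groups stood apart in run 1 and overlapped in run 3, where the WT libraries were as high as the KO libraries of run 1. Over both runs the log2 fold change was 0.47 ± 0.13 (SE), or 1.38-fold with a 95% interval of 1.14 to 1.67 (edgeR, adjusted p = 0.0207), and the exact permutation test gave p = 0.05. The rise stood in run 1 (0.83, adjusted p = 0.00156), while run 3 gave 0.09 (adjusted p = 0.759). The call was lost in 8 of 23 alternatives, whose adjusted p-values ran between 0.0010 and 0.256: without KO replicate 1 (0.33, adjusted p = 0.0968), without KO replicate 2 (0.44, adjusted p = 0.0512), with f/f controls alone (0.32, adjusted p = 0.150), with the acinar level as a covariate (0.34, adjusted p = 0.133) and in the others listed in the closing section.

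The sequence just before a start of these genes is shown because they are the 2 that rose. For each gene, the window shown is the one that held matches to the motifs named below. The windows are the 250 bases before a RefSeq transcript start in build GRCm38.p6, at chr19:38124812-38125061 on the minus strand for Rbp4 and chr12:38783461-38783710 on the plus strand for Etv1. Capitals mark matches to the motifs searched, and each is written 5′ to 3′ on the strand of the gene.
Rbp4: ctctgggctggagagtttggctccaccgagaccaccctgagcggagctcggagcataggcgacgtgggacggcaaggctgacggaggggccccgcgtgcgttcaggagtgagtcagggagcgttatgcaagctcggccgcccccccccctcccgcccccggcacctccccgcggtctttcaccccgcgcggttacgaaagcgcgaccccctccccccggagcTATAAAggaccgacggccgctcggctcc
Etv1: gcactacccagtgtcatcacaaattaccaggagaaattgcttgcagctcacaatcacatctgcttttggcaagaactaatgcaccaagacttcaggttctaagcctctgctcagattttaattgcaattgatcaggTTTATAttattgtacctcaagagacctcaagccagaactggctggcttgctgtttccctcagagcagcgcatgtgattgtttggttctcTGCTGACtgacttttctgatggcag
The motifs searched on both strands were TATAAA (the TATA box), TAATTA (a homeodomain core), CCGGAAGT (an ETS site), ACANNTGT (an Iroquois site) and TGCTGAC (a Maf site). Rbp4 held TATAAA at position −28, counted from the transcript start, and Etv1 held its reverse complement TTTATA at −114 and TGCTGAC at −25. Slc38a5, which did not pass the test for a change, held the Iroquois site as ACACGTGT at −31. The windows of Irx2, Pou3f4 and Hhex held no match. Whether any match bears on expression was not tested. Over 32817 windows of this length, TATAAA stood in 12.4%, TAATTA in 4.85%, CCGGAAGT in 2.88%, ACANNTGT in 6.32% and TGCTGAC in 3.81%. Motif results are given for windows of 6 of the 8 genes, and none are given for the remaining genes. Each of Rbp4 and Etv1 has another annotated start with no match, and counts per gene cannot tell the starts apart.

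Hhex encodes a homeodomain factor of the delta cell. It had 26.7, 9.74, 14.0 and 20.4 CPM in KO replicates 1 to 4, against 16.9, 15.9, 11.2, 14.5 and 13.9 CPM in WT replicates 1 to 5. The KO libraries held both the highest and the lowest value. The log2 fold change was 0.30 ± 0.24 (SE, adjusted p = 0.418), and without KO replicate 1 it was −0.03.

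Irx1 encodes an Iroquois homeodomain factor that is enriched in alpha cells of mouse islets. It had 33.5, 18.01, 10.3 and 7.63 CPM in KO replicates 1 to 4, against 18.8, 12.6, 14.9, 14.3 and 11.8 CPM in WT replicates 1 to 5. The KO libraries of run 3 were the lowest of all and those of run 1 among the highest. Over both runs the log2 fold change was 0.17 ± 0.25 (SE, adjusted p = 0.696), with −0.22 without KO replicate 1. Irx2, its Iroquois relative and neighbour on chromosome 13, had 23.0 to 45.6 CPM in KO and 23.3 to 32.6 CPM in WT islets, with a log2 fold change of 0.11 ± 0.17 (SE, adjusted p = 0.706) and −0.14 without KO replicate 1. The transcripts of this pair share at most 32 identical bases in a row, so reads long enough to pass that stretch separate them.

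Pou3f4 encodes a POU domain factor of the early alpha cell lineage in mice. It had 8.82, 6.33, 2.99 and 3.52 CPM in KO replicates 1 to 4, against 3.66, 6.15, 4.23, 7.23 and 4.05 CPM in WT replicates 1 to 5. KO libraries were above WT libraries in run 1 and below them in run 3, without overlap in either, at counts of 15 to 48 reads per library. The log2 fold change was 0.01 ± 0.36 (SE, adjusted p = 0.984) over both runs, and −0.27 without KO replicate 1.

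Ttr, the carrier named above, had 1026, 521, 468 and 388 CPM in KO replicates 1 to 4, against 689, 579, 583, 595 and 565 CPM in WT replicates 1 to 5. KO replicates 2, 3 and 4 were below every WT library, and KO replicate 1 was above them all. With all 9 libraries the log2 fold change was −0.02 ± 0.17 (SE, edgeR, adjusted p = 0.955). Without KO replicate 1 Ttr passed the test as lower in KO islets, with −0.36 (adjusted p = 0.0240, among adjusted p-values from 0.0199 to 0.996 over its 23 alternatives). That library was left out for its high values, Ttr among them, so this call is not support for a fall. Slc38a5, which carries neutral amino acids into the cell, had 26.5 CPM in KO replicate 1 and 10.7 to 11.7 CPM in the other KO libraries, against 10.7 to 15.9 CPM in WT libraries. Its log2 fold change was 0.17 ± 0.23 (SE, adjusted p = 0.656), and −0.22 without KO replicate 1.

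**Figure D2:**
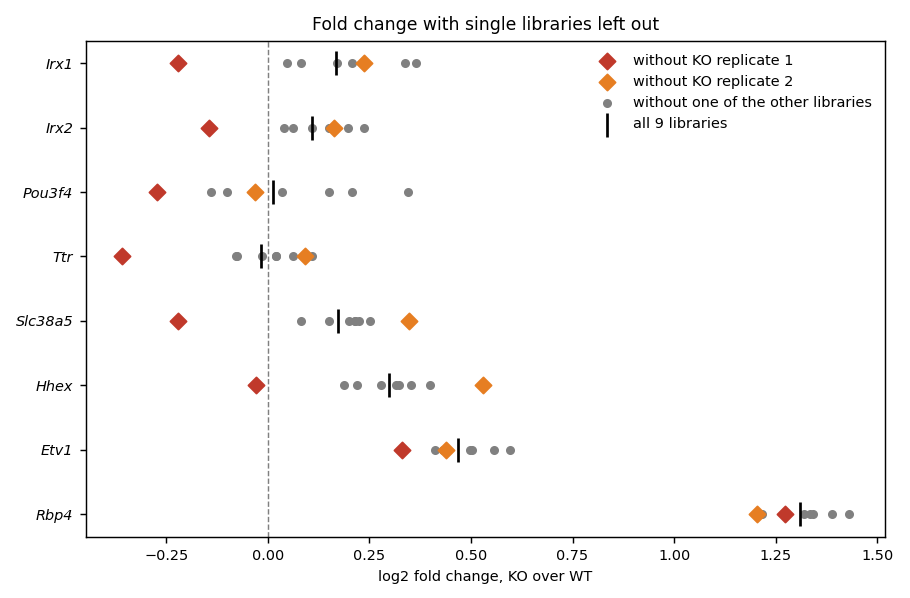
Log2 fold change, KO over WT (horizontal axis), of each of the 8 genes over both runs; black bars use all 9 libraries and points leave out 1 library. Without KO replicate 1, Irx1, Irx2, Pou3f4, Slc38a5 and Hhex changed sign and Ttr reached −0.36, whereas Rbp4 stayed at 1.27.

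The 5 alpha cell genes had log2 fold changes above 0 in run 1 and below 0 in run 3, of which none passed edgeR's test. In run 1 the log2 fold changes were 0.72 for Irx1, 0.48 for Irx2, 0.71 for Pou3f4, 0.33 for Ttr and 0.45 for Slc38a5. In run 3 they were −0.55 for Irx1, −0.30 for Irx2, −0.79 for Pou3f4, −0.44 for Ttr and −0.14 for Slc38a5. In run 3 the KO libraries of all 5 genes lay below the WT libraries without overlap, as did those of 25.5% of all tested genes, and in run 1 Pou3f4 alone stood apart, as higher, beside 21.7% of all tested genes. In run 1, 2 of the 8 genes rose (Etv1 and Rbp4) and none fell, where 5.49% of all tested genes rose, 4.86% fell and 10.4% moved either way. In run 3, 1 of the 8 rose (Rbp4) and none fell, where 2.19% of all tested genes rose, 2.13% fell and 4.32% moved either way. Without KO replicate 1, run 1 gave 0.21 for Irx1, 0.098 for Irx2, 0.45 for Pou3f4, −0.25 for Ttr and −0.35 for Slc38a5, and none passed. Without KO replicate 2, the lone KO library of run 1 is KO replicate 1, picked above for its high values of these genes. Run 1 then gave log2 fold changes of 1.11 for Irx1, 0.79 for Irx2, 0.73 for Ttr, 0.88 for Gcg and 0.86 for Sst. They describe that 1 library, as the fit must assume that it varies like the other groups.

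Markers of endothelial cells, which line the islet capillaries, were read beside this: 0 of 7 passed, and their median log2 fold change was 0.71 in run 1 and −0.40 in run 3, beside 0.48 and −0.44 for the 5 alpha cell genes. Their summed level was 127 to 523 CPM in KO and 161 to 394 CPM in WT libraries, and their part in the result was not tested.

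The difference between runs was tested itself, as the run 3 log2 fold change minus that of run 1. It was −1.27 for Irx1 (unadjusted p = 0.00799), −0.79 for Irx2 (0.0167), −1.50 for Pou3f4 (0.0232), −0.76 for Ttr (0.0209) and −0.59 for Slc38a5 (0.225). Among delta cell genes it was −0.73 for Etv1 (unadjusted p = 0.00157), −0.64 for Rbp4 (0.00899) and −0.03 for Hhex (0.947). Adjusted over all genes in edgeR, none of the 8 passed, with adjusted p-values of 0.795 and above. Of all tested genes, 0 passed in edgeR, where 744 had an unadjusted p under 0.05, and 0 passed with limma-voom. Without KO replicate 1 the difference was −0.20 for Ttr and −0.40 for Irx2, and that of Irx1 was −0.76.

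**Figure D3:**
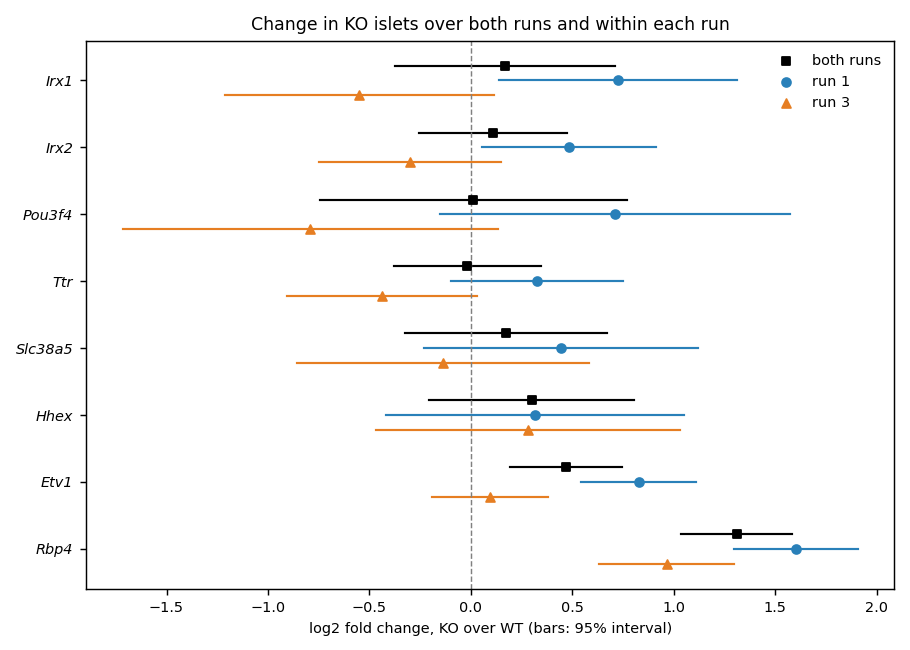
Log2 fold change, KO over WT (horizontal axis), of each of the 8 genes over both runs (squares), in run 1 (circles) and in run 3 (triangles), with 95% intervals as bars. Rbp4 lay above 0 in all 3 fits, and the 5 alpha cell genes lay above 0 in run 1 and below 0 in run 3.

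Each gene was also set against the hormone of its cell type in the same library, Gcg for alpha and Sst for delta cell genes. The ratio takes out a shift in the amount of that cell type only under 2 conditions. The hormone RNA per cell must be unchanged, and the gene's RNA must come from that cell type alone. Neither condition was tested. With all 9 libraries neither hormone passed the test, with log2 fold changes of 0.27 for Gcg (adjusted p = 0.300) and 0.38 for Sst (adjusted p = 0.0889). Without KO replicate 1 they were −0.030 for Gcg and 0.13 for Sst, and without KO replicate 2 Sst passed as higher (0.55, adjusted p = 0.00795). With no filter on low counts both passed (adjusted p = 7.53e-07 for Gcg and 8.73e-06 for Sst), though their log2 fold changes were 0.25 and 0.37. The adjusted p of Rbp4 also fell in this setting, to 4.20e-41, so the small values are not particular to the hormones. DESeq2 gave adjusted p-values of 0.561 for Gcg and 0.284 for Sst. Over 23 alternatives the adjusted p reached 0.921 for Gcg and 0.691 for Sst. Rbp4 had 103, 225, 239.98 and 177 reads per 1000 Sst reads in KO replicates 1 to 4, against 54.6, 64.2, 77.4, 133 and 129 in WT replicates 1 to 5. KO libraries were above WT libraries of the same run in both runs. The log2 ratio of Rbp4 to Sst was higher by 0.97 in KO islets, 1.23 in run 1 and 0.65 in run 3 (exact two-sided permutation within runs, p = 0.0167, the smallest it can give, 1 of 8 ratios tested and unadjusted). Etv1 to Sst differed by 0.14 (exact permutation p = 0.617) and Hhex to Sst by −0.15 (exact permutation p = 0.55).

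None of the ratios of the 5 alpha cell genes to Gcg passed. That of Ttr to Gcg had the largest difference of these, −0.30 on the log2 scale, −0.16 in run 1 and −0.48 in run 3 (exact permutation p = 0.0833). Its level was 16.3, 16.2, 20.1 and 15.8 reads per 1000 Gcg reads in KO replicates 1 to 4, against 18.8, 20.6, 15.4, 22.0 and 28.0 in WT replicates 1 to 5. In this ratio KO replicate 1 no longer stood apart from KO replicate 2. The differences of Irx1, Irx2, Pou3f4 and Slc38a5 were −0.11, −0.13, −0.18 and −0.12, with exact permutation p-values from 0.417 to 0.65.

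**Figure D4:**
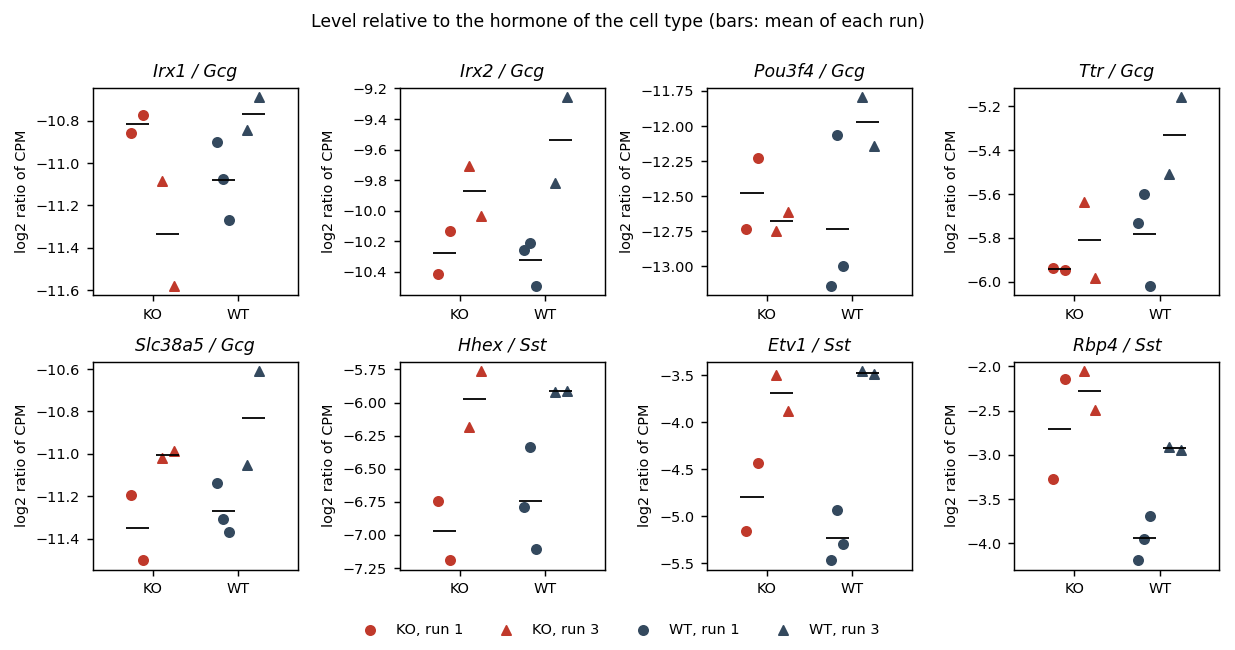
Log2 ratio of the CPM of each gene to that of Gcg (alpha cell genes) or Sst (delta cell genes) in 4 KO and 5 WT libraries; points are libraries, circles run 1, triangles run 3, bars the mean of each run, and axes do not start at 0. Rbp4 to Sst lay higher in KO than in WT libraries within each run, by 1.23 in run 1 and 0.65 in run 3.

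Between genes, levels were compared on the authors' FPKM, which is per length. Ttr was highest at a mean of 521 ± 144 FPKM over the 9 libraries (SD), then Rbp4 at 218 ± 110 FPKM, and these were above the next gene in all 9 libraries. Etv1 (14.6 ± 5.69 FPKM), Irx2 (11.6 ± 2.73), Hhex (9.42 ± 2.93), Irx1 (7.58 ± 3.23), Slc38a5 (6.56 ± 3.01) and Pou3f4 (4.31 ± 1.77) followed. Neighbours in this lower order kept it in 6 to 8 of 9 libraries, within their spread. By genotype, Rbp4 averaged 328 ± 51.4 FPKM in KO (n = 4) and 130 ± 23.1 FPKM in WT islets (n = 5), and Ttr 519 ± 230 FPKM in KO and 522 ± 40.7 FPKM in WT islets.

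Of 10 other alpha cell genes, all tested, 2 rose and 0 fell, with a median log2 fold change of 0.28. One of them was Smarca1, a chromatin remodelling ATPase, which rose by 0.60 (adjusted p = 0.00139). Of 8 other delta cell genes, 5 were tested: 0 rose and 1 fell, with a median of 0.38. The one that fell was Casr, the calcium-sensing receptor (log2 fold change −0.30, adjusted p = 0.0366).

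Among 4 genes of PP and epsilon cells, the islet cells that secrete pancreatic polypeptide and ghrelin, 1 rose. It was Pyy, which encodes peptide YY, by 0.80 (adjusted p = 3.58e-05). Ppy, which encodes pancreatic polypeptide, had 780 to 2225 CPM in KO and 804 to 1452 CPM in WT islets, with a log2 fold change of 0.54 (adjusted p = 0.0772). KO replicate 1 had the lowest Ppy: without it Ppy passed as higher (0.77, adjusted p = 0.00291), without KO replicate 2 the value was 0.15 (adjusted p = 0.594), and over 23 alternatives the adjusted p ran between 1.44e-11 (no filter on low counts) and 0.716. Of 9 beta cell genes, 0 rose and 4 fell: Ucn3, which encodes urocortin 3 (log2 fold change −1.30), Mafa, a transcription factor of mature beta cells (−1.53), Iapp, which encodes amylin (−0.61), and Nkx6-1, a beta cell homeodomain factor (−0.29). Nkx6-1 is named outside the rule for named genes, to account for all that fell. Urocortin 3 acts on delta cells in mouse islets.

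Genes related to the 8 by function or family mostly did not pass, which also held for all tested genes, of which 18.5% passed in either direction. Of 19 genes of retinoid transport, synthesis and response, 10 were tested, 1 rose and 0 fell, with a median log2 fold change of 0.34. That gene was Rxra, a nuclear receptor for retinoids, by 0.36 (adjusted p = 0.0406). The summed level of the retinoid list without Rbp4 was 142 to 157 CPM in KO and 115 to 132 CPM in WT libraries, and Rxra made up 54.6 ± 7.76 CPM of it in KO and 42.8 ± 6.24 CPM in WT islets (SD, n = 4 and 5). Of 10 PEA3 factors and ERK feedback genes, 9 were tested, and beside Etv1 none rose. Dusp4, a phosphatase of ERK, fell by 1.15 (adjusted p = 0.00184), and Spry2, an inhibitor of receptor signalling to ERK, fell by 0.81 (adjusted p = 0.0122). Etv5, the closest relative of Etv1, had 10.0 ± 1.24 CPM in KO and 10.2 ± 4.22 CPM in WT islets (SD, n = 4 and 5).

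Close relatives of the alpha cell transcription factors were low. Only Irx1 and Irx2 of the 6 Iroquois genes, and only Pou3f4 of the 4 class III POU genes, passed the filter on low counts. Of 11 Slc38 transporters, 8 were tested, 0 rose, and Slc38a4, another amino acid transporter, fell by 0.53 (adjusted p = 0.00303). Irx2 and Irx5 share up to 65 identical bases, but Irx5 had 2 reads in all libraries together. By the annotation of build GRCm38, exons of the 8 genes overlap those of no other gene.

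Markers of other cell types were read beside the rise of Rbp4. Liver and fat are known for high Rbp4. Of 6 adipocyte genes in the table, 1 was tested and did not pass, with summed levels of 2.02 to 6.09 CPM in KO and 2.44 to 8.95 CPM in WT libraries, and Adipoq, the defining adipokine, had 4 reads over all 9 libraries. Of 6 hepatocyte genes, 2 were tested and did not pass, with a median log2 fold change of 0.73. They were Fgb (0.32, edgeR, adjusted p = 0.550) and Apoa2 (1.14, adjusted p = 0.0780), the latter at 2.97 CPM in KO and 1.40 CPM in WT islets. Sums over the list were 12.8 to 42.1 CPM in KO and 13.6 to 29.3 CPM in WT libraries. Alb, which encodes albumin, averaged 1.39 CPM in KO and 0.320 CPM in WT islets.

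Of 14 tested acinar cell genes, 3 fell (Ctrl, Cpb1 and Cel) and 0 rose. Their summed level in run 1 was 488 to 2330 CPM in KO and 2699 to 6834 CPM in WT libraries, and in run 3 it was 93.0 to 256 CPM in KO and 134 to 160 CPM in WT libraries. With the acinar level as a covariate Rbp4 rose by 1.11 (adjusted p = 4.83e-05). Of 6 fibroblast genes tested 1 rose (Pdgfrb), with a median log2 fold change of 0.57. Fibroblast sums in run 1 were 181 to 307 CPM in KO and 85.8 to 211 CPM in WT libraries, and in run 3 they were 778 to 849 CPM in KO and 489 to 696 CPM in WT libraries, without overlap in run 3. Of 7 macrophage genes tested 1 rose (Lyz2), at sums of 58.9 to 70.4 CPM in KO and 61.7 to 67.2 CPM in WT libraries, and of 5 duct genes tested 0 passed, at sums of 411 to 712 CPM in KO and 480.2 to 803 CPM in WT libraries. The part of fibroblast, macrophage and duct RNA in the results was not tested.

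Across the 9 libraries, with run means taken out, Irx1, Irx2 and Ttr went together. Their pairwise Pearson r was 0.96 for Irx1 and Irx2, 0.91 for Irx1 and Ttr and 0.91 for Irx2 and Ttr, and KO replicate 1 is the high library of all 3. Of 10907 genes compared, Sytl5 was the most like Irx1 (r = 0.96) and Ttr (r = 0.96) and the second most like Irx2 (r = 0.96). Dock11 followed for Irx1 (r = 0.94), Zfp658 led for Irx2 (r = 0.96), and Mettl16 and Slx4ip (both r = 0.94) followed for Ttr. Slc38a5 was most like Egflam (r = 0.98), Exoc1 and Ppm1k (both r = 0.95), and Pou3f4 most like Sowahc (r = 0.91), Csf1r and Polr3gl (both r = 0.90).

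Among delta cell genes, Rbp4 and Etv1 had r = 0.86 with each other, while Hhex had r = 0.09 with Rbp4 and 0.28 with Etv1. Rbp4 had r = 0.53 with Sst and 0.55 with Ppy, and Etv1 had r = 0.57 with Sst and 0.59 with Gcg. The genes most like Rbp4 were Rfx2, Ncam2 and Fbxo9 (each r = 0.99), which rose in KO islets by 0.68, 0.63 and 0.48. Those most like Etv1 were Tuft1 and Plekhh2 (both r = 0.98), which rose by 0.60 and 0.52, and Ptbp1 (r = 0.97), with 0.10 (adjusted p = 0.371). Hhex was most like Tbc1d2 (r = 0.97), Dctn2 (r = 0.96) and Gnl1 (r = 0.94). These correlations describe libraries that share genotype groups and depth, and the genes were picked for them.

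Between the 2 f/+ and the 3 f/f WT libraries, none of the 8 genes passed edgeR's test in a fit with run as a term. Run 1 held both f/+ libraries and 1 f/f library, WT replicate 2, so within a run the comparison rests on that f/f library. Of all tested genes 0 passed and 398 had an unadjusted p under 0.05. The log2 difference, f/+ minus f/f, ran from −1.12 for Pou3f4 (95% interval −2.22 to −0.025, adjusted p = 1) to 0.03 for Slc38a5, and was −0.01 for Rbp4 (95% interval −0.50 to 0.47) and −0.38 for Etv1 (95% interval −0.82 to 0.06).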

How the data were processed

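Hand-picked islets were kept in culture overnight and frozen, and a low-input kit that keeps strand turned their total RNA into libraries, per the labels' protocols. The authors deposited raw read counts per gene symbol and FPKM values, 1 column per library. Bowtie2 2.2.4.0, Cuffdiff 2.2.1, FastQC, edgeR and build mm10 are named, with no role, per the submitters' processing notes. Use of strand in counting and handling of reads with several matches are not stated in any source at hand. The labels call the later run both 3 and the second, and run 3 is used here.

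Of 24420 rows of the count table, 27 with symbols turned into dates (0.133% to 0.186% of counts) were left out. Replicates of 1 group and run differed by 3.73 to 36.4 in chi-square per degree of freedom, so each was counted as 1 sample. All 12501 genes kept by the filter on low counts were fitted with edgeR 4.0.16 (R 4.3.3; TMM, quasi-likelihood test, terms for run and genotype), with Benjamini-Hochberg adjustment over all of them and calls at an adjusted p under 0.05. Values per run and their difference came from a fit of the 4 run and genotype groups. In simulated counts for the comparison over both runs, 84% of 2-fold rises and 72.9% of 2-fold falls were recovered, with 14 false calls among 12349 genes. Replicate numbers here follow accession order, name a library and pair nothing. Log2 values for permutations, ratios and correlations used a prior count of 2, and permutations were made within runs (60 arrangements). Alternatives used DESeq2 1.42.0, limma 3.58.1 (voom, and log2(FPKM + 1)), other filters and controls, and left out libraries. The 8 genes and all lists were chosen with earlier results of these data known. Named outside the 8 were Ogt, Gcg, Sst and Ppy, up to 3 called genes per list or the lowest p where none was, and the 3 genes most like each of the 8 (average log2 CPM 2 or above). Promoter sequences are from RefSeq. Single values of some genes in the lists are not reported here.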

Additional observations from a re-analysis of the deposited data

Results flagged for a closer look

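Within groups of 4 or 5 libraries, 16 groups were checked for a library far from the others, of which chance picks out about 1 in 20. Slc38a5 in KO replicate 1, at 26.5 CPM, lay far above the other KO libraries. Ttr in WT replicate 1, at 689 CPM, lay far above the other WT libraries. Pou3f4 was higher in both KO libraries than in all WT libraries of run 1 and lower in both than in the WT libraries of run 3. The run 3 log2 fold change minus that of run 1 was −1.50 (edgeR, unadjusted p = 0.0232, adjusted p = 0.795).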

How the results depend on the processing

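No paired analysis was possible because the labels give no replicate numbers, and those used here were given in accession order. Rbp4 rose in all 23 alternatives (1.11 to 1.43). Etv1 kept its sign in all 23 and its call in 15, so members called higher numbered 1 with no run term (Etv1 0.48, adjusted p = 0.256), f/f controls alone, the acinar covariate, unfiltered FPKM (0.41, adjusted p = 0.0798), without WT replicates 2 and 5 (0.47, adjusted p = 0.0686) and without KO replicate 1 and WT replicate 2 (0.32, adjusted p = 0.143); in the last, 1 member (Ttr) was called lower. Genes called, 2315 of all tested, were 672, 1538, 1423, 1300, 1488 and 1388 in those 6 settings. Pou3f4 turned to −0.012 with voom, −0.0064 with no filter, −0.0024 without the ribosomal precursor Rn45s, −0.38 with f/f controls, −0.10 with the acinar covariate, −0.046 and −0.058 on FPKM with pseudocounts of 1 and 0.1, −0.046 on unfiltered FPKM, −0.020 without WT replicates 2 and 5 and −0.23 without KO replicate 1 and WT replicate 2. Without this last pair, Irx1 was −0.29, Irx2 −0.18, Slc38a5 −0.27 and Gcg −0.077. With voom the difference between runs was 0.11 for Hhex and 0.031 for Ppy. The causes were not tested.

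Where leaving out 1 library left a group of a run with 1 library, its spread was taken from the other groups. Leaving out 1 library gave 1595 to 2334 genes called over both runs, with 1 to 2 members higher and 0 to 1 lower. It gave 649 to 1613 genes in run 1 (2 to 5 members higher), 60 to 871 in run 3 (0 to 1 member higher), 0 to 6 for the difference between runs and 0 to 5 for f/+ against f/f. Log2 fold changes over both runs then ran between −0.22 and 0.36 for Irx1, −0.14 and 0.24 for Irx2, −0.27 and 0.34 for Pou3f4, −0.36 and 0.11 for Ttr, −0.22 and 0.35 for Slc38a5, −0.028 and 0.53 for Hhex, −0.030 and 0.40 for Gcg, 0.13 and 0.55 for Sst and 0.15 and 0.77 for Ppy. In run 1 they ran between −0.25 and 0.73 for Ttr, −0.35 and 0.96 for Slc38a5, −0.58 and 0.87 for Hhex, −0.089 and 0.88 for Gcg, −0.12 and 0.86 for Sst and −0.32 and 1.15 for Ppy. In run 3 they ran between −0.021 and 0.53 for Hhex, −0.049 and 0.23 for Etv1 and −0.18 and 0.25 for Gcg. The difference between runs ran between −1.10 and 0.20 for Slc38a5, −0.59 and 0.86 for Hhex, −0.86 and 0.10 for Gcg, −0.55 and 0.42 for Sst and −0.67 and 0.79 for Ppy. Ratios to the hormone ran between −0.23 and 0.057 for Irx1, −0.23 and 0.011 for Irx2, −0.41 and −0.03 for Pou3f4, −0.38 and −0.21 for Ttr, −0.20 and −0.03 for Slc38a5, −0.24 and −0.03 for Hhex, −0.094 and 0.27 for Etv1 and 0.66 and 1.14 for Rbp4. Without any 1 of WT replicates 1 to 3, Rbp4 to Sst had an exact permutation p of 0.0556, the smallest that design allows. At 15 to 48 reads per library, depth limits Pou3f4.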

Other observations

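Genes used by all endocrine cells of the islet were not described above. Of 8 tested, 0 rose and 3 fell in KO islets, with a median log2 fold change of −0.10. Insm1, a zinc finger factor of endocrine differentiation, averaged 117 ± 12.8 CPM in KO (SD, n = 4) and 165 ± 20.3 CPM in WT islets (SD, n = 5) and fell by 0.45 (edgeR, adjusted p = 0.00108). Neurod1, a basic helix-loop-helix factor, averaged 180.5 ± 8.31 CPM in KO and 227 ± 15.5 CPM in WT islets and fell by 0.33 (adjusted p = 0.00776). Pcsk2, the protease that processes proglucagon and proinsulin, averaged 2435 ± 712 CPM in KO and 3035 ± 626 CPM in WT islets and fell by 0.28 (adjusted p = 0.0281).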
